A study of Mus musculus with 10 samples.

Results

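Src family kinases were followed in Hepa1-6 cells, a mouse hepatoma line, with and without activated CD8+ T cells. The 7 members Src, Fyn, Yes1, Lyn, Lck, Fgr and Blk were chosen by gene symbol, and all 7 were among the 34745 genes of the deposited table. RNA sequencing had been done on 10 libraries, all from wild-type cells by their labels. 5 came from Hepa1-6 cells given no treatment, and 5 from Hepa1-6 cells that had spent 48 h with CD8+ T cells, a treatment labelled CTL attack. The T cells came from spleens of male C57/BL6 mice aged 6 to 8 weeks and had first been stimulated for 5 days with anti-CD3 and anti-CD28 antibodies. Before lysis the wells were rinsed with PBS to take away cells in suspension. Neither separate cultures nor separate T-cell donors are stated for the libraries of a group, so p-values measure the spread between these libraries, which may be technical. In such bulk RNA, fewer cells of a type and less RNA per cell cannot be told apart.

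Src family kinases are tyrosine kinases held at the inner face of the plasma membrane, where they pass signals from receptors and integrins to the cytoskeleton and to growth pathways. Src, Fyn and Yes1 are found in most tissues, Lck mainly in T cells, where it starts signalling from the T-cell receptor, Blk mainly in B cells, and Fgr in myeloid cells, with Lyn in both B and myeloid cells. Phosphorylation of a tyrosine in the C-terminal tail by the kinase Csk folds the enzyme into an inactive form, and phosphatases that remove this phosphate open it again.

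Both ends of the coding sequence are shown because they carry the features that define the family. They were read from GENCODE M21 transcripts, 1 per gene, which code for 491 to 541 codons. The first 24 coding bases are given 5′ to 3′, with the second codon and the third codon in capitals.
Src: atgGGCAGCaacaagagcaagccc
Fyn: atgGGCTGTgtgcaatgtaaggat
Yes1: atgGGCTGCattaaaagtaaagaa
Lyn: atgGGATGTattaaatcaaaaagg
Lck: atgGGCTGTgtctgcagctcaaac
Fgr: atgGGCTGTgtgttctgcaagaag
Blk: atgGGGCTGctgagcagcaagagg
In all 7 members the second codon was a glycine codon, the residue that receives the myristate anchor. In 5 members the third codon was a cysteine codon, TGT or TGC, whose residue can carry a second lipid, palmitate. In Src it was AGC and in Blk it was CTG.
The last 36 coding bases before the stop codon follow, with tyrosine codons (TAT or TAC) in capitals.
Src: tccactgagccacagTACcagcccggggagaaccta
Fyn: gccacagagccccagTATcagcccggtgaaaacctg
Yes1: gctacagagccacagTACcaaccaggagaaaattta
Lyn: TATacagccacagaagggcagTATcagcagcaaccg
Lck: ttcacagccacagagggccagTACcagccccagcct
Fgr: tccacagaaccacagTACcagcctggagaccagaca
Blk: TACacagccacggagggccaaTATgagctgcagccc
The tyrosine codon closest to the stop stood 7 codons from the end in Src, Fyn, Yes1 and Fgr and 5 codons from the end in Lyn, Lck and Blk, which is the regulatory tail tyrosine that Csk acts on. Lyn and Blk had another tyrosine codon in this window. Over the 21 pairs of members the whole coding sequences were 58.7% to 71.0% identical in aligned bases, and the longest run of identical bases shared by any pair was 23 bases. Whether reads falling in such runs were shared between members at counting is not stated.

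Totals ran from 12922263 to 17100662 counts per library. Of the 7 liver markers that were set as a check of the cell type, Krt8 and Krt18, keratins of liver epithelium, were abundant and the fetal liver gene Afp was at 20.0 ± 2.06 CPM (counts scaled to a fixed library size, with TMM factors) in untreated cells, while Alb (0 and 4 summed counts in untreated and co-cultured cells), Hnf4a (0 and 1), Ttr (3 and 6) and Apoa1 (6 and 3) were nearly absent. Genes named Rpl or Rps, which code for ribosomal proteins, took 4.36% to 4.55% of the counts in untreated libraries and 3.46% to 4.10% after co-culture. Mitochondrial genes took 2.68% to 3.30% and 3.19% to 3.63%. A gene with 0 counts in a library could still be at up to 0.175 to 0.232 CPM there (3 counts), for counting error only. Of 12 liver genes 5 could be tested. Afp (15.5 ± 0.863 CPM after co-culture) and Krt8 fell (quasi-likelihood test of edgeR, adjusted p = 0.00400 and 0.00790), as did 16.1% of all tested genes. Trf, transferrin, went from 2 to 274 summed counts. It passed the low-count filter only through the co-culture libraries, so no share of calls is given for this list.

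Per gene length, Src stood highest and Lyn next in untreated and co-cultured cells alike. In untreated cells the deposited FPKM (the fragment count corrected for gene length and for depth) averaged 13.6 ± 0.617 for Src, 9.84 ± 0.667 for Lyn, 5.36 ± 0.377 for Fyn, 1.73 ± 0.268 for Lck and 1.16 ± 0.313 for Yes1 (SD, n = 5). After co-culture the level was 18.3 ± 4.0 FPKM for Src, 10.2 ± 0.437 for Lyn, 4.14 ± 0.352 for Fyn, 1.30 ± 0.202 for Yes1 and 1.12 ± 0.174 for Lck. Fgr and Blk lay far below, at 0.0357 ± 0.0300 and 0 FPKM in untreated cells. The order thus differed between the groups in 1 place, where Lck and Yes1 changed ranks. In both groups the ranges of Lck and Yes1 overlapped, as did those of Fgr and Blk, and no other neighbours in the order overlapped. Lck was above Yes1 within each of the 5 untreated libraries, at 1.00 to 2.60 times its FPKM, and below it in 4 of the 5 co-culture libraries, where the ratio ran from 0.675 to 1.26. The gene lengths behind the deposited FPKM were 1.06 to 2.62 times the length of the GENCODE transcript, with the widest gap for Src (10218 and 3906 bases). With CPM divided by the transcript length instead, a scale chosen after those lengths were seen, the order was the same in each group, from Src at 36.1 CPM per kilobase in untreated cells to Lck at 3.76 and Yes1 at 2.67.

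Within the family, Src was higher after co-culture, Fyn and Lck were lower, and no change was called for Lyn and Yes1. Fgr and Blk had too few counts to test. So 1 of the 5 tested members rose and 2 fell, with a median log2 fold change of 0.02, against 17.4% of all 12666 tested genes that rose and 16.1% that fell (quasi-likelihood test of edgeR, called where p adjusted by Benjamini-Hochberg, BH, was under 0.05) and a median of 0.01. With 5 genes, these shares do not set the family apart from the rest. The groups did not overlap in 3 of the 5, with 1 higher, as for 12.6% of tested genes, and 2 lower, as for 11.1%.

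**Figure D1:**
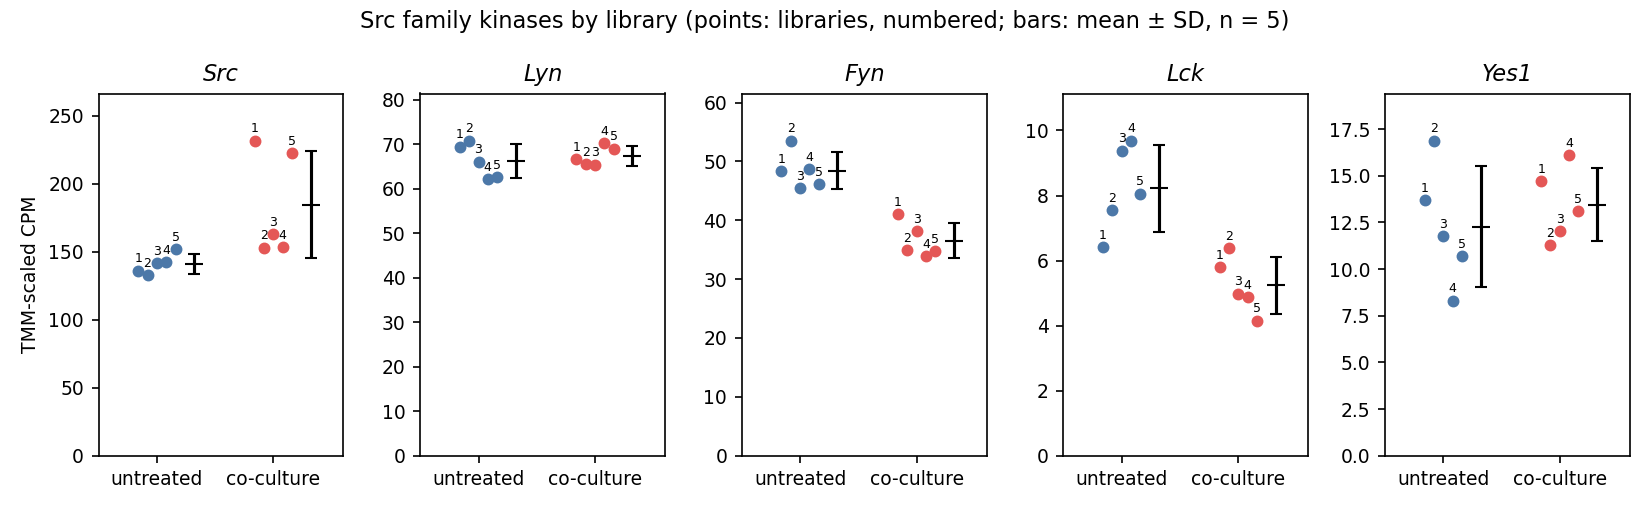
TMM-scaled CPM (vertical axis, from 0) of the 5 tested Src family kinases in each library, numbered by replicate, with the mean and SD of 5 libraries. Co-culture libraries 1 and 5 stand at 232 and 223 CPM for Src, and for Fyn and Lck all 5 co-culture libraries lie below the untreated ones.

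Src, the founding member and a kinase of focal adhesions (ENSMUSG00000027646, chromosome 2, 157418444 to 157471862 on the plus strand of mm10), was at 136, 133, 142, 142 and 152 CPM in untreated libraries 1 to 5 and at 232, 153, 163, 153 and 223 CPM in co-culture libraries 1 to 5. The groups did not overlap, but they nearly met at 152 and 153 CPM, and co-culture libraries 1 and 5 stood well above the other 3. The means were 141 ± 7.28 and 185 ± 39.1 CPM (n = 5), a log2 fold change of 0.39 ± 0.114 (SE, edgeR, BH-adjusted p = 0.0176). The spread between libraries was wider after co-culture. Without co-culture library 1 the log2 fold change was 0.29 (edgeR, BH-adjusted p = 0.0475), and without library 5 it was 0.32 (edgeR, BH-adjusted p = 0.0460).

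Fyn, which serves adhesion signalling and, in T cells, acts beside Lck (ENSMUSG00000019843, chromosome 10, 39368855 to 39565381, plus strand), was at 48.3, 53.5, 45.4, 48.7 and 46.2 CPM in untreated libraries and at 41.0, 34.9, 38.2, 33.9 and 34.7 CPM in co-culture libraries. Every co-culture library was below every untreated library. The averages were 48.4 ± 3.17 and 36.5 ± 2.99 CPM (n = 5), a log2 fold change of -0.41 ± 0.0704 (SE, edgeR, BH-adjusted p = 0.000652). Of all tested genes, 17.8% had a larger change in either direction.

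Lck, the kinase of the T-cell receptor (ENSMUSG00000000409, chromosome 4, 129548344 to 129573641, minus strand), was present in untreated hepatoma cells and lower with the T cells. Its counts were 103, 107, 158, 155 and 107 in untreated libraries and 89, 104, 65, 71 and 64 in co-culture libraries. In CPM these were 6.42, 7.55, 9.38, 9.68 and 8.06 against 5.79, 6.38, 4.98, 4.86 and 4.15. The groups did not overlap, though untreated library 1 and co-culture library 2 differed by little. The mean fell from 8.22 ± 1.34 to 5.23 ± 0.866 CPM (n = 5), a log2 fold change of -0.65 ± 0.143 (SE, edgeR, BH-adjusted p = 0.00359). This was the largest change among the 5 tested members, and 7.65% of all tested genes changed more. On log2(FPKM + 1), where the added 1 is close to the level of the gene, the difference was -0.36 (limma adjusted p = 0.00385). The ribosomal protein share of the library was also lower in each co-culture library than in each untreated one, and its part in the result was not tested.

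Lyn, a kinase that both activates and restrains receptors of B and myeloid cells (ENSMUSG00000042228, chromosome 4, 3678115 to 3813122, plus strand), was at 69.5, 70.8, 66.1, 62.2 and 62.7 CPM in untreated libraries and at 66.7, 65.5, 65.4, 70.3 and 69.0 CPM after co-culture. The groups overlapped throughout. The log2 fold change was 0.02 ± 0.0517 (SE, edgeR, BH-adjusted p = 0.759), with a 95% interval of -0.09 to 0.14.

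Yes1, a widely expressed relative of Src (ENSMUSG00000014932, chromosome 5, 32611171 to 32687057, plus strand), was at 13.7, 16.9, 11.8, 8.31 and 10.7 CPM in untreated libraries and at 14.7, 11.3, 12, 16.1 and 13.1 CPM after co-culture. The untreated libraries held both the lowest and the highest of the 10 values. The log2 fold change was 0.13 ± 0.163 (SE, edgeR, BH-adjusted p = 0.572) with a 95% interval of -0.22 to 0.49, so a change of the size seen in Src is not excluded by these libraries.

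Fgr and Blk stayed at the detection limit. Fgr (ENSMUSG00000028874, chromosome 4, 132974095 to 133001910) had 3, 1, 0, 6 and 3 counts in untreated libraries and 5, 3, 3, 1 and 4 after co-culture, a ratio of 1.29 with an exact 95% interval of 0.580 to 2.91 for counting error. Blk (ENSMUSG00000014453, chromosome 14, 63372837 to 63417187) had 1 count in all 10 libraries, in co-culture library 4. A difference in either was not detectable at this depth.

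**Figure D2:**
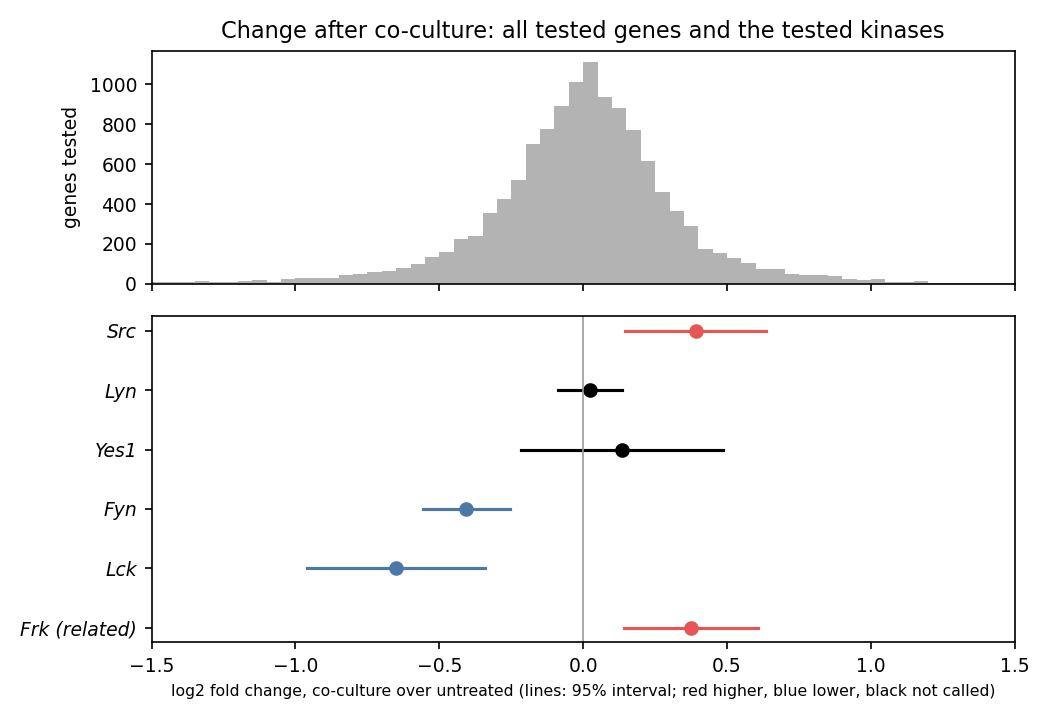
Upper panel, number of tested genes by log2 fold change of co-culture over untreated, with 155 genes beyond 1.5 in either direction not drawn. Lower panel, the 5 tested members and the related kinase gene Frk with their 95% intervals; Src and Frk lie to the right of 0, Fyn and Lck to the left, and the intervals of Lyn and Yes1 include 0.

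Start regions of the 3 members that changed are shown, and that of Yes1 is described beside them. Each runs from 250 bases before to 50 bases after a RefSeq start (build GRCm38.p6), on the strand of the gene, with 2 motifs in capitals wherever they occur on either strand: GGGCGG, a box bound by Sp1, and AGGAAGT, a core bound by Ets factors. In the Lck region at the downstream start the GGGCGG and AGGAAGT matches stand 1 base apart.
Src (chr2:157424043-157424342, plus strand): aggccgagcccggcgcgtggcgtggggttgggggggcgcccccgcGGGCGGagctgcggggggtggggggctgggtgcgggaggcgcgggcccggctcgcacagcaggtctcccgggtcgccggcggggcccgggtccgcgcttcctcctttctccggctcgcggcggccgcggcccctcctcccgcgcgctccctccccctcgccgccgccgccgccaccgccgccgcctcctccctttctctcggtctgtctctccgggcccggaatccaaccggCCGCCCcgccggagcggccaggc
Fyn (chr10:39369549-39369848, plus strand): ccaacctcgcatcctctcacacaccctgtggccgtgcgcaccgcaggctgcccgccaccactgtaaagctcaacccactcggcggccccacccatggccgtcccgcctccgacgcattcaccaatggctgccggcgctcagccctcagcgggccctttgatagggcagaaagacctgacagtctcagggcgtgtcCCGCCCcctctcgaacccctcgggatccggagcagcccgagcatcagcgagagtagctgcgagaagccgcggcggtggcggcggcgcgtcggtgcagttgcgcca
Lck, upstream start (chr4:129573592-129573891, minus strand): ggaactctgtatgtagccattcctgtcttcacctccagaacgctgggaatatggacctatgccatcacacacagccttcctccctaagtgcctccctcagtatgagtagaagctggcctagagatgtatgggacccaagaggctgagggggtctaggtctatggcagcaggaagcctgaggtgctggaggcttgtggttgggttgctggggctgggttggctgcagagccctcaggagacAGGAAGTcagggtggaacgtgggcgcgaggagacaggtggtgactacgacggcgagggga
Lck, downstream start (chr4:129558323-129558622, minus strand): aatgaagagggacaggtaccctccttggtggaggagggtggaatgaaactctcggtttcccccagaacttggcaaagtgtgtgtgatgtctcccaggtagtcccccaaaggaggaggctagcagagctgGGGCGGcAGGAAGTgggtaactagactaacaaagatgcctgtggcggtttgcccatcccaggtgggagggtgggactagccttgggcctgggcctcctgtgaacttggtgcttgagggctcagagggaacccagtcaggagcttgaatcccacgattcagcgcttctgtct
The Src region was 82.3% G or C, above 99.6% of the 32851 RefSeq start regions of this length, whose median was 52.7%. That of Fyn was 69.0%, and the Lck regions were 58.3% at the upstream start and 57.3% at the downstream start. CG dinucleotides numbered 47 in Src and 31 in Fyn but 7 and 5 in the Lck regions, against a median of 7. GGGCGG occurred 2 times in Src, 1 time in Fyn and 1 time at the downstream start of Lck, and was present in 35.7% of all start regions. Yes1, which was not called, came close to Src, with 77% G or C, 42 CG dinucleotides and 2 GGGCGG matches in its region. Any part of base composition in the changes was not tested. AGGAAGT occurred 1 time at each start of Lck and in neither Src nor Fyn, and was present in 9.35% of all. The core of the interferon-stimulated response element and the STAT element TTCNNNGAA, found in 3.44% and 8.30% of all, had no match in the 4 regions. The downstream start of Lck is the one known as the proximal promoter, used mainly in the thymus, and the upstream one as the distal promoter, used in mature T cells. Counts are per gene, so transcripts from the 2 starts of Lck, and likewise the splice forms of Fyn and Lyn, cannot be told apart here. The Src and Fyn regions lie downstream of the first base given above for each gene. Any start farther upstream is thus not described by them.

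Src made up a larger part of the family after co-culture, and Fyn a smaller one, with no overlap between the groups. Src held 39.5% to 46.1% of the summed FPKM of the 7 members in untreated libraries and 46.9% to 57.0% after co-culture. Fyn held 15.9% to 18.3% and then 10.2% to 13.3%. Lck (4.28% to 6.51%, then 2.31% to 4.35%) overlapped narrowly between the groups. Lyn (29.2% to 32.7%, then 25.1% to 33.0%) and Yes1 (2.50% to 4.89%, then 3.26% to 4.79%) overlapped more widely. The FPKM of Src was 2.17 to 2.87 times that of Fyn within untreated libraries and 3.72 to 5.60 times within co-culture libraries. The summed FPKM of the family was 31.7 ± 0.644 and 35.1 ± 4.37 in the 2 groups (n = 5), and no test was made on the sum or the shares. The size of each share depends on the gene lengths used: by summed counts Src held 51.0% and 59.6% on average, where the FPKM gave 42.9% and 51.6%.

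**Figure D3:**
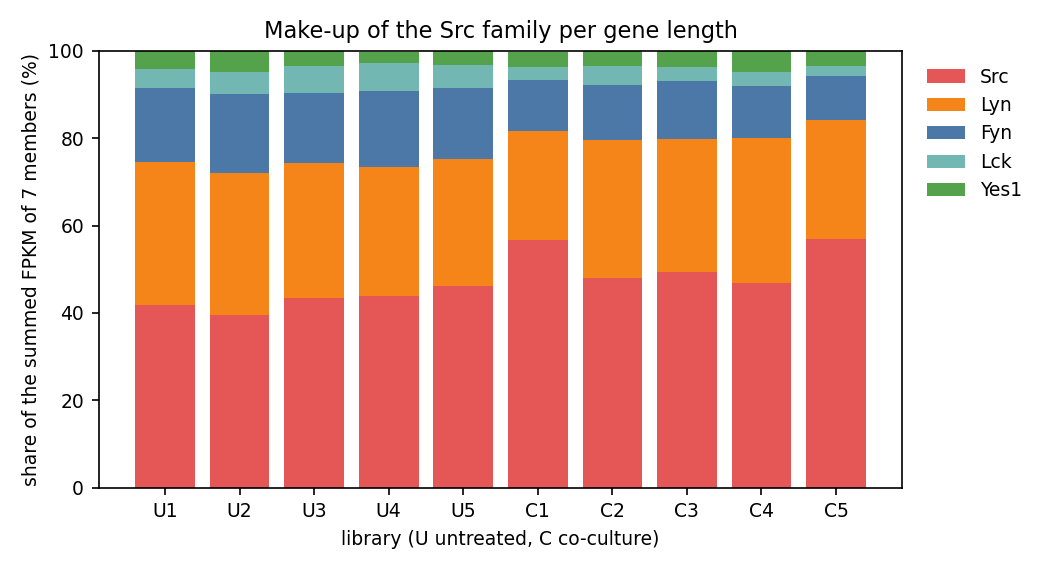
Share of each member in the summed FPKM of the 7 Src family kinases (vertical axis, percent) in untreated libraries U1 to U5 and co-culture libraries C1 to C5. The Src share is 46.9% or more in each co-culture library and at most 46.1% in untreated libraries; Fgr and Blk are too small to see.

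Among related kinases outside the 7, Frk, an epithelial relative with a similar domain order, was higher after co-culture. It stood at 21.4, 18.3, 17.7, 14.9 and 14.7 CPM in untreated libraries and at 22.6, 19.6, 21.5, 24.1 and 25.2 CPM in co-culture libraries. The groups overlapped, since untreated library 1 was above co-culture library 2. The log2 fold change was 0.38 ± 0.107 (SE, edgeR, BH-adjusted p = 0.0161). Srms had 5 and 8 summed counts and Ptk6 had 0 in all libraries.

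Most other genes of T cells were at or near 0 in both groups. For Lck, the summed counts were 630 and 393. Of the 9 T-cell markers set for the check, Cd3e, Cd3d, Cd8a and Cd2 had 0 counts in all 10 libraries. The 9 together summed to 0.377 to 0.812 CPM in untreated libraries and 0.519 to 0.690 CPM after co-culture, mostly from Cd5 (22 and 22 summed counts) and Trac (18 and 15). Zap70, the kinase that Lck activates at the receptor, had 0 and 3 counts, Cd4, the co-receptor that binds Lck, 1 and 2, and Cd8b1 0 and 2. The membrane adaptor gene Lat had 22 and 33 counts, a ratio of 1.57 (exact 95% interval 0.887 to 2.82). Of 28 genes of the T-cell receptor pathway and T cells, 15 had more summed counts after co-culture, 3 had fewer and 10 were equal. Only 3 of the 28 could be tested. The adaptor gene Lcp2 rose from 2.09 ± 0.529 to 3.05 ± 0.561 CPM (edgeR, BH-adjusted p = 0.0427), a call lost in 9 of 18 other fits, at adjusted p up to 0.109. The chemokine gene Ccl5 fell from 118 ± 16.7 to 43.8 ± 6.03 CPM (n = 5, edgeR, BH-adjusted p = 6.28e-07), and Cd28 was at 0.552 and 0.904 CPM (edgeR, BH-adjusted p = 0.249).

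Most genes beside which Blk works in B cells were also close to 0. Of the 5 B-cell markers, Ms4a1 had 0 counts in all libraries, Cd79a had 9 and 7, Cd79b 3 and 1 and Pax5 1 and 0. Btk, a kinase of B and myeloid cells, had 0 and 18 summed counts and no overlap between the groups. Against a floor of 3 counts over the untreated group its ratio was 6.27, with the counting error of the 18 counts left out. Cd22, a B-cell lectin, had 1 and 8 counts (ratio 8.36, exact 95% interval 1.12 to 370.9, counting error only). Of 12 B-cell genes only Blnk, the adaptor of the B-cell receptor, could be tested, and it fell from 80.9 ± 3.06 to 63.0 ± 3.48 CPM (n = 5; the log2 change was -0.36 ± 0.0512 SE, edgeR, BH-adjusted p = 0.000132).

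Myeloid genes, by contrast, mostly had more counts after co-culture, all 7 of the markers among them. The 7 summed to 31.8 to 36.3 CPM in untreated libraries and 67.6 to 80.8 CPM after co-culture, mostly from Cd14 (2466 and 3697 summed counts), and none of them was at 0 in either group. In a wider list of 20, 19 genes had more summed counts after co-culture. Several of them, such as Tyrobp (0 and 84 counts), Cybb (7 and 167) and Clec7a (5 and 110), passed the low-count filter only through the co-culture libraries, so calls over the list are not counted. Examples were Lyz2, lysozyme, which went from 0.931 ± 0.250 to 18.2 ± 2.15 CPM, Adgre1, the F4/80 antigen of macrophages, from 0.162 ± 0.102 to 3.66 ± 0.482 CPM, and Laptm5, a lysosomal protein of blood cells, from 0.0702 ± 0.103 to 2.75 ± 0.341 CPM (n = 5). Cd68, another macrophage gene of the list, had 1904 and 1882 summed counts. The groups overlapped for Lyn and Fgr, which myeloid cells also use. The part of myeloid RNA in the levels of Lyn and Fgr was not tested.

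**Figure D4:**
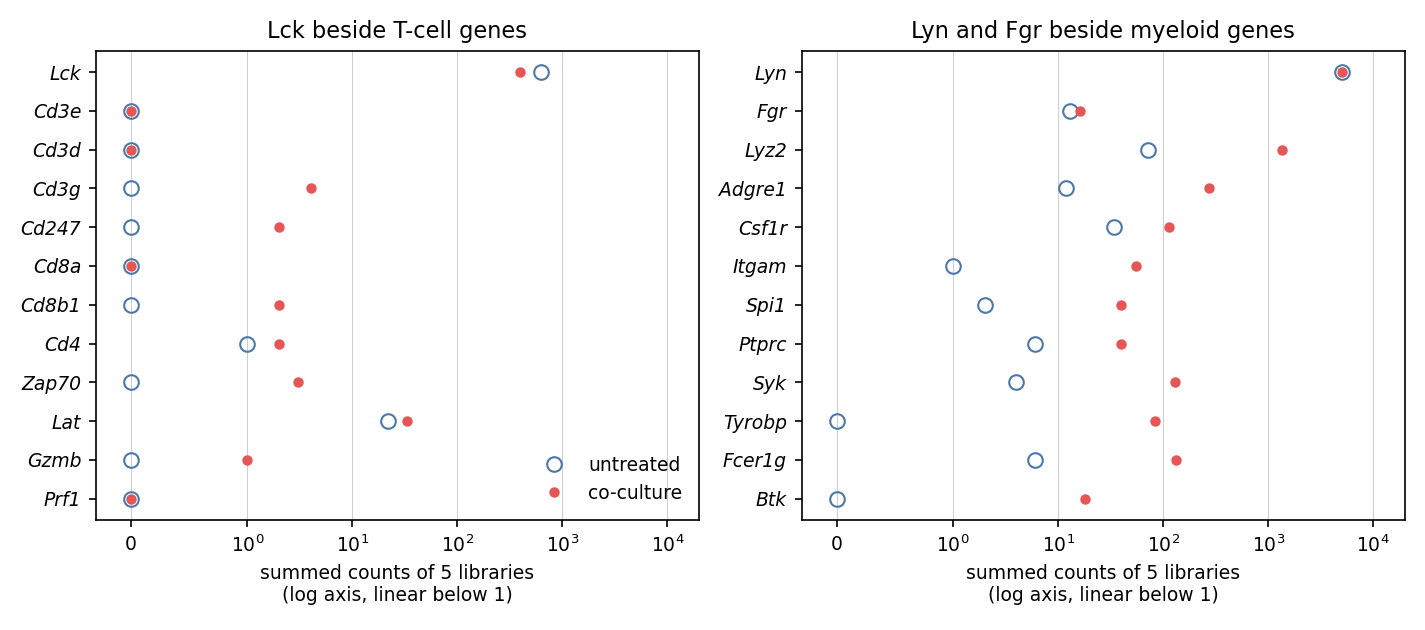
Counts summed over 5 libraries (horizontal log axis, linear below 1), open circles for untreated cells and filled circles for co-culture. Left, Lck stands at 630 and 393 counts while Cd3e, Cd3d, Cd8a and Prf1 are at 0 in both groups; right, myeloid genes such as Lyz2 and Syk (4 and 130 counts) stand higher after co-culture, and Lyn stands at 5060 and 5037.

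Among the enzymes that set the activity of Src kinases, the phosphatase genes Ptpn11 and Ptpn6 rose, and Ptpn22 and Cblb fell. Of 19 regulators, 17 were tested, and these 2 rises (11.8%) and 2 falls (11.8%) stand against 17.4% and 16.1% of all tested genes, with a median log2 fold change of 0.03 against 0.01. With library totals alone as the scaling, 4 rose. Csk, which phosphorylates the inhibitory tail tyrosine, was at 143 ± 5.90 and 153 ± 5.21 CPM (n = 5; the log2 change was 0.10, 95% interval 0.00 to 0.19, edgeR, BH-adjusted p = 0.107). Ptpn11, the phosphatase Shp2 of growth factor signalling, rose from 157 ± 4.01 to 187 ± 3.64 CPM (edgeR, BH-adjusted p = 0.000218), and Ptpn6, its relative Shp1, rose from 35.5 ± 3.99 to 45.5 ± 4.98 CPM (edgeR, BH-adjusted p = 0.00886). Ptpn22, a phosphatase that acts on Lck and Fyn in lymphocytes, fell from 4.66 ± 0.711 to 2.81 ± 0.255 CPM (n = 5; the log2 change was -0.73 ± 0.138 SE, edgeR, BH-adjusted p = 0.00128). Cblb, a ubiquitin ligase that limits kinase signalling, fell from 47.3 ± 1.1 to 40.2 ± 2.84 CPM (edgeR, BH-adjusted p = 0.00923). Ptprc, the phosphatase CD45 that activates Lck in lymphocytes, had 6 and 40 summed counts, a ratio of 6.97 (exact 95% interval 2.93 to 20.1, counting error only). The groups overlapped, with 1 or more libraries at 0 in each, and Ptprc is also 1 of the 7 myeloid markers.

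Among substrates and partners at adhesions, the called changes were small. Of 24 genes, 23 were tested, 6 rose (26.1%) and 2 fell (8.70%), against 17.4% and 16.1% of all tested genes, and the median log2 fold change was 0.02 against 0.01. Neither of the 2 falls was called by edgeR once replicate number was a block. Tln1, talin, which links integrins to actin, went from 564 ± 34.7 to 687 ± 25.4 CPM, Tns3, a tensin of focal adhesions, from 135 ± 5.24 to 162 ± 8.56 CPM, and Ezr, ezrin, from 335 ± 7.55 to 372 ± 7.55 CPM (n = 5, edgeR, BH-adjusted p = 0.000630, 0.000821 and 0.00670). Vcl, vinculin, fell from 448 ± 16.7 to 405 ± 6.86 CPM (edgeR, BH-adjusted p = 0.0104), a call that the block ended (edgeR, BH-adjusted p = 0.0557). Ptk2, the focal adhesion kinase that binds Src, fell from 188 ± 8.04 to 171 ± 8.31 CPM (edgeR, BH-adjusted p = 0.0403), a call lost in 11 of 18 other fits, at adjusted p up to 0.139.

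Receptors that signal through Src kinases were called in both directions, as were all tested genes. Of 20 genes, 18 were tested, and 6 fell (33.3%), against 16.1% over all. Another 5 rose, but Itgb1 and Csf1r among them passed the low-count filter only through the co-culture libraries. Csf1r (34 and 114 summed counts) is also a myeloid marker. The share of rises and the median log2 fold change of -0.01 are therefore not set against those of all genes. Itgb1 and Csf1r are also among the 18 behind the share of falls. The 5 rises became 8 with library totals alone as the scaling and 3 among genes averaging 1 CPM or more. Erbb2, a receptor of the epidermal growth factor family, rose from 28.9 ± 1.6 to 37.7 ± 3.06 CPM and Epha2, an ephrin receptor, from 106 ± 7.57 to 132 ± 8.10 CPM (n = 5, edgeR, BH-adjusted p = 0.00101 and 0.00106). Itga6, the laminin-binding integrin alpha 6, fell from 198 ± 17.2 to 127 ± 6.23 CPM, Fgfr1 from 195 ± 4.79 to 156 ± 6.86 CPM and Pdgfrb from 26.1 ± 3.61 to 15.8 ± 0.991 CPM (n = 5, edgeR, BH-adjusted p = 5.07e-06, 7.52e-05 and 8.36e-05). Itgb1, the integrin beta 1 chain that pairs with Itga6, had 7 and 68 summed counts, a ratio of 10.2 (exact 95% interval 4.67 to 26.2, counting error only). Because of the filter, no p-value is given for it. At 0.0952 ± 0.0640 CPM in untreated cells, Itgb1 lay far below its partner Itga6, and the reason was not tested. Myeloid genes rose beside Itgb1, and their part in its rise was not tested.

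**Figure D5:**
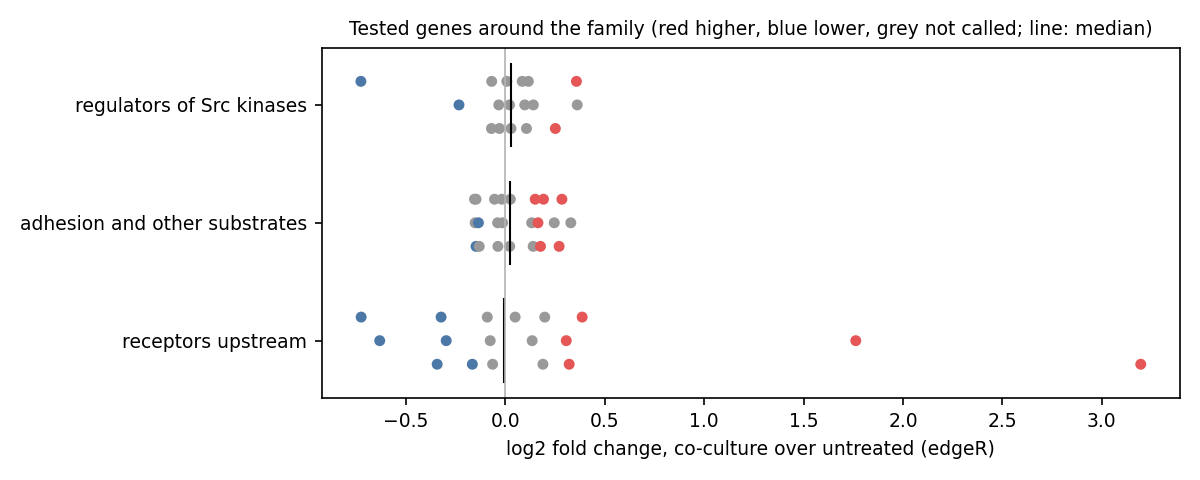
Log2 fold change of co-culture over untreated (horizontal axis) for the tested regulators, adhesion substrates and receptors, coloured by call, with the median as a line. The medians are 0.03, 0.02 and -0.01, the last with Itgb1 and Csf1r included, which passed the low-count filter only through co-culture. The receptor gene farthest to the right is Itgb1, with 7 and 68 counts.

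Among genes of Syk and of ITAM signalling, the pathway that Src kinases start in leukocytes, 17 of 21 had more summed counts after co-culture. Syk (4 and 130 counts), Fcer1g (6 and 133), Tyrobp and Sirpa (8 and 131) passed the low-count filter only through the co-culture libraries, so calls over this list are not counted either. Syk, the kinase recruited to phosphorylated ITAMs, went from 0.0542 ± 0.0538 to 1.73 ± 0.544 CPM (n = 5). Fcer1g, an ITAM-bearing receptor chain, went from 0.0790 ± 0.102 to 1.76 ± 0.421 CPM (n = 5). The phosphatase gene Inpp5d went from 1.2 ± 0.303 to 3.79 ± 0.598 CPM (n = 5, edgeR, BH-adjusted p = 1.89e-05). Plcg2, a phospholipase downstream of Syk, fell from 70.1 ± 4.90 to 55.3 ± 2.06 CPM (edgeR, BH-adjusted p = 0.000476). The rises of Syk, Fcer1g and Inpp5d went with those of the myeloid markers, and a shared source was not tested. Fcer1g and Tyrobp also belong to the wider myeloid list, so the tallies of the lists share these genes.

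Across the 10 libraries, the tested genes most like each member in log2 CPM differed from member to member. Of 11256 candidates, Src was followed most closely by Ctbp1, a transcriptional co-repressor (Pearson r = 0.93), Proser3 (r = 0.93) and Dram1, a lysosomal membrane protein (r = 0.90). Dram1 rose as Src did (log2 fold change 0.33, edgeR, BH-adjusted p = 0.00565), and the rise of Proser3 passed narrowly (0.28, edgeR, BH-adjusted p = 0.0494) and was lost in 13 of 18 other fits, at adjusted p up to 0.130. Fyn was followed by Fam107b (r = 0.97), Armc3 (r = 0.96) and Syt17 (r = 0.96), all of which fell. Lck was followed by Nme2, a nucleoside diphosphate kinase (r = 0.98), and Rps9, a ribosomal protein (r = 0.98), which also fell, Rps9 by 0.28 on the log2 scale. Yes1 was followed by Pibf1 (r = 0.93), Pds5b (r = 0.93) and Cnot7 (r = 0.93), and Lyn by Morc3 (r = 0.97), Fam49a (r = 0.94) and Slc39a10 (r = 0.94), none of which was called. Among the members themselves the closest pair was Yes1 and Lyn, with r = 0.90 over the 10 libraries and also 0.90 for the deviations from the group means. Lck ran against both in those deviations, at r = -0.53 with Yes1 and -0.64 with Lyn. These correlations are descriptions of 10 libraries that share their scaling, and carry no test. The group difference is part of each r over the 10 libraries. Genes closest to a member that changed therefore tend to change the same way by the choice itself.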

How the data were processed

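RNA of 10 Hepa1-6 libraries had been sequenced by the authors, who used 1.3 ug of total RNA per library, per the labels' protocols. Tools named in the submitters' processing notes are RSEM 1.2.8, HISAT2 2.1.0 and Bowtie2 2.2.5, with mm10 as the build; the sources used here do not give their roles, the annotation or any use of strand. The deposited counts are whole numbers per gene, per the file headers, and the deposited FPKM follow from them with a constant length for each gene, which held within 0.00104% over 9379 genes. Antisense or overlapping transcripts cannot be told apart from Fyn, Yes1 and Lyn if strand was not used; those in the table had at most 80 counts in all.

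Counts were tested with edgeR 4.0.16 in R 4.3.3 (filterByExpr, TMM, two-sided quasi-likelihood F test, Benjamini-Hochberg adjustment over 12666 genes, called below 0.05). Standard errors were obtained from the F statistic, and intervals are at 95%. For genes under the filter, summed counts are given, with exact binomial intervals for their ratio. Replicate libraries differed beyond sampling noise (chi-square per degree of freedom 6.67 to 15.1), so each counted as 1 sample. The fit was tested on simulated data. Alternatives were DESeq2 1.42.0, limma 3.58.1 on log2 FPKM with a pseudocount of 1 or 0.1, other scalings and filters, the replicate number as a block and leaving out each library.

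The members and the 9 gene lists were chosen with earlier results of these data known. Named genes are the members, 4 related kinases, per list the 3 called genes of smallest p in each direction, and per tested member the 3 genes (mean of at least 1 CPM, no predicted models or clone names) closest in log2 CPM; some of these, and some list genes, are not reported here. Other genes were named after their values were seen. Start regions come from RefSeq, where 6 regions of 5 members matched, and transcripts from GENCODE M21. The motifs were chosen after these regions had been seen.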

Additional observations from a re-analysis of the deposited data

Results flagged for a closer look

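In 7 of the 103 groups of 5 libraries examined, 1 library stood apart from the other 4 in TMM-scaled CPM, where chance gives about 1 in 20. No cause was tested for any of them.

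Among the members, this was the case for Blk, whose single count gave co-culture library 4 a level of 0.0685 CPM. For Trf, 2 counts put untreated library 4 at 0.125 CPM. The other 4 libraries were at 0 in both cases. Armc3, whose pattern was close to that of Fyn, was at 3.45 CPM in co-culture library 1, with the others between 2.2 and 2.39 CPM. Fcer1g was at 2.52 CPM in co-culture library 2, with the others between 1.56 and 1.61 CPM. Erbb2 was at 31.7 CPM and Inpp5d at 1.73 CPM in untreated library 5, and Tns3 was at 126 CPM in untreated library 4, below the others at 135 to 138 CPM. The high values of Src in co-culture libraries 1 and 5 did not meet this criterion, because 2 libraries were high together.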

How the results depend on the processing

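The calls of Src, Fyn and Lck held in all 18 other fits, and Lyn and Yes1 were called in none. Log2 fold changes ranged from 0.29 to 0.45 for Src, -0.46 to -0.31 for Fyn, -0.74 to -0.36 for Lck, 0.00 to 0.06 for Lyn and 0.02 to 0.27 for Yes1. Their adjusted p reached 0.0475, 0.00529 and 0.0164 for the first 3 and went down to 0.460 and 0.182 for the last 2. Leaving out each library gave 1849 to 2128 genes higher and 1813 to 2093 lower over all genes. Members kept at 1 higher and 2 lower, Src at 0.29 to 0.45, Fyn at -0.46 to -0.37, Lck at -0.74 to -0.57, Lyn at 0.00 to 0.05 and Yes1 at 0.02 to 0.27. With the replicate number as a block, 1762 genes were higher and 1625 lower, Src was at 0.37, Fyn at -0.41, Lck at -0.64, Lyn at 0.03 and Yes1 at 0.15. Same-numbered libraries did not deviate together (r from -0.10 to 0.05). No pairing by number was seen, but 5 such pairs cannot exclude it. The block ended the call of Vcl (adjusted p = 0.0557), and Ptk2 and Lcp2 lost theirs under it too (0.101 and 0.0890).

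Shares in the family depended on the length used. By summed counts, Src held 51.0% and 59.6% (untreated and co-culture), Lyn 24% and 22.2%, Lck 2.98% and 1.73% and Yes1 4.41% after co-culture. Per kilobase of transcript, added after the data were seen, Src held 47.7% and 56.6%, Lyn 25.8% and 24.3% and Fyn 18% in untreated cells. Without 1 library, Src held 42.1% to 43.8% and 50.2% to 52.8%.

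Of 44 other named genes, 36 kept direction and call in every refit. Without 1 library, the log2 fold change of Cnot7 ran from -0.025 to 0.15, that of Morc3 from -0.013 to 0.094, that of Pds5b from -0.025 to 0.12 and that of Pibf1 from -0.18 to 0.16, and with limma Pibf1 was at 0.0054 (pseudocount 1) and 0.023 (pseudocount 0.1), so these 4 changed sign. None was called in any fit, and the cause was not tested. Changes of low genes shrink on log2(FPKM + 1), by the construction of that scale: Syk was at 0.17, Itgb1 at 0.19, Inpp5d at 0.26, Laptm5 at 0.57 and Ptpn22 at -0.21. At 393 to 630 summed counts, Lck is the least deeply counted of the tested members.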
